A study of Mus musculus with 4 samples.

Results

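The antiviral effectors described here are 9 mouse genes: Mx1, Mx2, Ifit1, Ifit2, Ifit3, Isg15, Usp18, Rsad2 and Bst2. They were chosen by name, as every non-control probe whose gene name in the scanner files is one of these symbols or G1p2, the older name of Isg15. This gave 13 of the 41174 probes on the array, and 12 of them were kept because the scanner software marked both samples of 1 siRNA group, or of both, as well above background. The 12 cover all 9 genes, with 3 probes for Rsad2, 2 for Ifit2 and 1 for each other gene, and the probe that did not pass is the second probe of Mx1.

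The study asked how mouse fibroblasts that re-enter the cell cycle respond to loss of Exportin-5 (Xpo5), the nuclear transport receptor that carries microRNA precursors to the cytoplasm. The Xpo5 siRNA group had 2 samples and the control group, given a negative control siRNA, had 2 samples. All were wild-type primary embryonic fibroblasts of C57BL/6 mice. Every sample, controls included, received 60 nM siRNA with a lipid reagent for 12 hours, then 48 hours in 0.2% serum, then 24 hours in 20% serum with a second dose of siRNA. Both groups had therefore been given double-stranded RNA by transfection, and no sample without siRNA was analysed here. The series describes 2 independent experiments, and the replicate numbers in the labels were read as those experiments. The labels do not say that the cells came from separate embryos, so the p-values measure only the spread between these samples. C57BL/6 mice, like most inbred strains, carry an Mx1 allele that gives no working protein.

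Type I interferons bind a receptor that activates the transcription factor complex ISGF3. ISGF3 binds the interferon-stimulated response element, or ISRE, in front of its target genes. Mx proteins are large GTPases that trap viral components, IFIT proteins bind foreign RNA ends and block their translation, and ISG15 is a ubiquitin-like protein that is attached to other proteins. USP18 removes ISG15 and also holds back the interferon receptor, RSAD2 (viperin) makes a chain-terminating nucleotide, and BST2 (tetherin) holds budding virus at the cell surface. In fibroblasts these genes are textbook readouts of the interferon response.

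RefSeq promoters on GRCm38.p6, taken from 250 bases before the start of the transcript to 50 bases after it, were available for 6 of the 9 genes. Mx1, Mx2 and Usp18 had none in the table used. The core of an ISRE, taken as 2 copies of GAAA with any 2 bases between them, was searched on both strands. It occurred in the only promoter listed for 5 of the 6 genes, and in neither of the 2 listed for Ifit2. Of all 32851 promoters in the table, counted singly, 2.98% had a match. The stretches that hold the matches in these 5 genes are shown 5′ to 3′ on the gene's strand, with the matched letters in capitals.
Isg15, chr4:156200850-156200921, minus strand: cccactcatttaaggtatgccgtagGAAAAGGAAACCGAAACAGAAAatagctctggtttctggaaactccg
Bst2, chr8:71537562-71537627, minus strand: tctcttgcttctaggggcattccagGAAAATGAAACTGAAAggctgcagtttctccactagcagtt
Rsad2, chr12:26456538-26456597, minus strand: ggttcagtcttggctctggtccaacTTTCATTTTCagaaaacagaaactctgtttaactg
Ifit3, chr19:34583348-34583441, plus strand: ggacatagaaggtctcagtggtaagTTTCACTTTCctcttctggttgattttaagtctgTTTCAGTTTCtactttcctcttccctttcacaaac
Ifit1, chr19:34640760-34640838, plus strand: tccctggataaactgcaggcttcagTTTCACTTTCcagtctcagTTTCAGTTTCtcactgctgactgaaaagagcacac

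Isg15 held 3 overlapping matches and Bst2 held 2 overlapping matches, while Ifit3 and Ifit1 each held 2 separate ones on the opposite strand and Rsad2 held 1. The first match began 78 bases before the start of Isg15, 130 before Bst2, 120 before Rsad2, 156 before Ifit3 and 104 before Ifit1. Neither of the 2 starts listed for Ifit2 had a match in its window. The core of the interferon-gamma-activated (GAS) element, TTC and GAA with any 3 bases between them, occurred in the windows of Bst2, where it overlaps the ISRE letters, and of 1 Ifit2 start, against 7.02% of all promoters. These are matches of letters and were not tested for binding.

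All levels below are log2 signals of 1 probe relative to the 75th percentile of its array, so that 0 marks a probe at that percentile. Differences are fitted in limma with their SE, each from 2 arrays per group. P-values are adjusted over all 25637 probes tested, with 0.05 as the threshold. The siRNA difference is fitted without the experiment unless a block is named, and the experiment difference with the siRNA in the fit. The SE of a siRNA difference therefore includes the gap between experiments, and the 2 kinds of SE are not to be compared. With the experiment as a block they are equal for a given probe. The 4 arrays had 62.4% to 65.0% of spots well above background and 0 saturated spots. By its brightest probe, Xpo5 itself was at -1.95 and -1.93 with Xpo5 siRNA, against 1.31 and 1.26 with control siRNA. It was lower by 3.23 ± 0.14 on the log2 scale, or 10.7% of the control signal. Its limma adjusted p was 0.0654, and 0.0412 with the experiment as a block. Of the other 3 Xpo5 probes, 1 was at 11.8% and 1, dim, at 39.5% of the control signal (limma adjusted p = 0.178 and 0.425, and 0.102 each with the block). The last probe was above background only with Xpo5 siRNA in experiment 2, where it read -4.97 against -7.36 with control siRNA. In experiment 1 it read -7.52 with Xpo5 siRNA and -7.47 with control siRNA.

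Between Xpo5 siRNA and control siRNA, 8 of the 12 probes were higher (51.8% of all probes) and 4 lower, with a median difference of 0.32, against 0.01 over all probes tested. The differences ran from 1.57 for Mx1 to -0.27 for the brightest Rsad2 probe. None of the 12 passed the test in limma (adjusted p of 0.320 or more), where 0.0% of all probes passed, and 2 of the 12 had an unadjusted p under 0.05, against 10.9% of all probes. With the experiment as a block, 0 of the 12 passed (0.0156% of all probes), and 7 had an unadjusted p under 0.05 (23.4%). An exact permutation test of 2 arrays against 2 cannot go below p = 0.333, so no single probe can pass such a test.

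**Figure D1:**
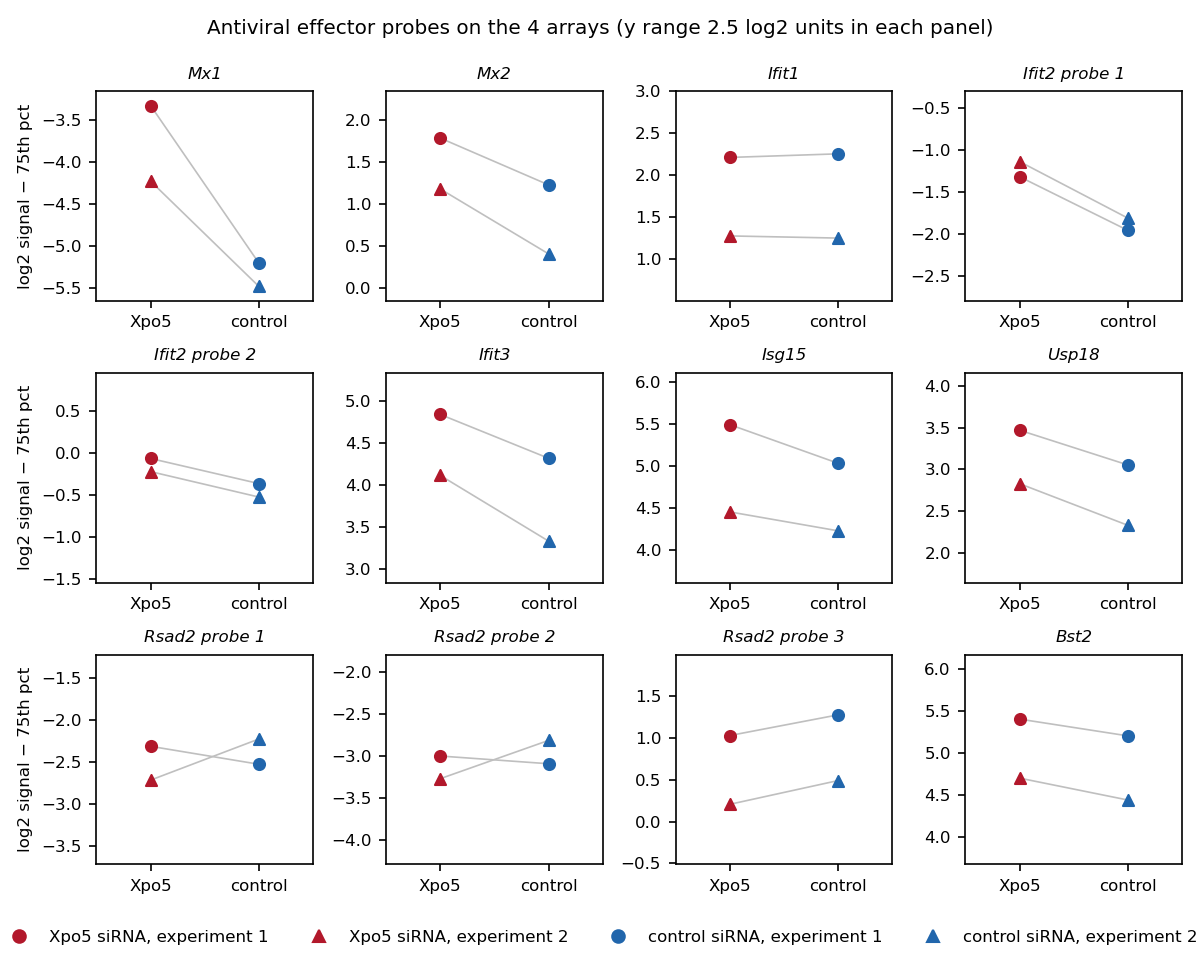
Each panel shows 1 probe on the 4 arrays as log2 signal minus the 75th percentile of the array, with Xpo5 siRNA in red on the left and control siRNA in blue on the right. Circles are experiment 1 and triangles experiment 2, grey lines join the samples of an experiment, and Ifit2 and Rsad2 probes are numbered by position. Both Xpo5 siRNA points lie above both control points for Mx1 and the 2 Ifit2 probes, whereas both circles lie above both triangles for Mx2, Ifit1, Ifit3, Isg15, Usp18, Bst2 and Rsad2 probe 3.

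Among the Mx GTPases, Mx1 had the largest siRNA difference of the 12 probes. Its probe at chr16:97669616-97669675 (mm9) was at -3.33 and -4.23 with Xpo5 siRNA, against -5.21 and -5.49 with control siRNA. The 2 Xpo5 siRNA samples lay above both controls, and the signal was dim on every array, at 52.7 and 27.6 units with Xpo5 siRNA and 14.3 and 13.1 units with control siRNA. The difference was 1.57 ± 0.34, a 2.96-fold higher signal, with a limma adjusted p of 0.320. It was 1.88 in experiment 1 and 1.26 in experiment 2. It was 0.53 after normexp background correction with an offset of 50, a setting that draws dim signals together.

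For genes taken by their brightest probe and with the experiment as a block, Mx1 passed in limma with an adjusted p of 0.0435, where 2.99% of 13926 genes passed as higher. This was 1 of the alternatives tried, chosen after seeing the data, and no other member passed under it. The second Mx1 probe, at chr16:97672001-97672060, was well above background only on the array of Xpo5 siRNA in experiment 1. It read -5.90 and -6.11 with Xpo5 siRNA, against -7.01 and -6.94 with control siRNA. No fold is given for it, because its mean with Xpo5 siRNA did not exceed the lowest signal counted as above background.

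Mx2, the second Mx gene, lies near Mx1 on chromosome 16, with the probe of Fam3b between them, and its own probe covers chr16:97782327-97782386. It was at 1.79 and 1.18 with Xpo5 siRNA, against 1.23 and 0.41 with control siRNA. Experiment 1 was above experiment 2 in both siRNA groups, and the groups overlapped. The difference of 0.67 ± 0.36 did not pass in limma (adjusted p = 0.577), although Mx2 was higher with Xpo5 siRNA by 0.56 in experiment 1 and by 0.77 in experiment 2. With the experiment as a block the SE was 0.12 and the limma adjusted p was 0.106.

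The Ifit genes lie in 1 cluster on chromosome 19, where the probes of Ifit2, Ifit3 and Ifit1 span 75.5 kb on mm9, and they did not share 1 pattern. Ifit1, which recognises the 5′ ends of foreign RNA, was at 2.21 and 1.27 with Xpo5 siRNA, against 2.25 and 1.25 with control siRNA (chr19:34723796-34723855). The groups overlapped fully, and the siRNA difference was -0.01 ± 0.47 (limma adjusted p = 0.996). Experiment 1 was above experiment 2 by 0.94 with Xpo5 siRNA and by 1.00 with control siRNA.

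Ifit3, whose human counterpart stabilises IFIT1, was at 4.84 and 4.12 with Xpo5 siRNA, against 4.32 and 3.33 with control siRNA (chr19:34663105-34663164). The order of the samples was that of Mx2, with both experiment 1 samples on top. Its siRNA difference was 0.65 ± 0.42 (limma adjusted p = 0.627), at 0.52 in experiment 1 and 0.78 in experiment 2. With the experiment as a block the SE was 0.13 and the limma adjusted p was 0.110. Ifit3 and Ifit3b are closely similar copies, and how far their probes share signal was not tested.

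Ifit2 was the Ifit gene whose siRNA groups did not overlap. Its probe at chr19:34648307-34648366 was at -1.32 and -1.14 with Xpo5 siRNA, against -1.96 and -1.81 with control siRNA. The difference was 0.66 ± 0.15, with a limma adjusted p of 0.334, and it was 0.64 in experiment 1 and 0.67 in experiment 2. It was 0.43 after normexp background correction. The second probe, at chr19:34650244-34650303, was at -0.07 and -0.22 with Xpo5 siRNA, against -0.36 and -0.53 with control siRNA. Both probes were higher with Xpo5 siRNA in both experiments, and the second differed by 0.30 ± 0.15 (limma adjusted p = 0.555).

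Over the 12 probes, both Xpo5 siRNA samples lay above both controls for 3, the Mx1 probe and the 2 Ifit2 probes, against 21.5% of all probes. The siRNA difference was above 0 in both experiments for 8 of the 12 (35.9% of all probes), below 0 in both for 1 (33.7%) and of opposite sign for 3 (30.4%).

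Isg15, the ubiquitin-like modifier, was at 5.49 and 4.45 with Xpo5 siRNA, against 5.03 and 4.23 with control siRNA (chr4:155573922-155573981). Both samples of experiment 1 lay above both of experiment 2, and the siRNA difference of 0.34 ± 0.45 was smaller than the gap between the experiments in each group (limma adjusted p = 0.807). Within the experiments Isg15 was higher with Xpo5 siRNA by 0.46 and 0.23, with a limma adjusted p of 0.212 with the experiment as a block. Usp18, the protease that removes ISG15, followed the same order of samples. It was at 3.47 and 2.83 with Xpo5 siRNA, against 3.05 and 2.33 with control siRNA (chr6:121220513-121220572), a difference of 0.46 ± 0.34 (limma adjusted p = 0.671). Within the experiments it was higher by 0.41 and 0.50 (limma adjusted p = 0.136 with the block). Bst2, the virus tether, was at 5.41 and 4.70 with Xpo5 siRNA, against 5.20 and 4.44 with control siRNA (chr8:74058603-74058662). Its siRNA difference was 0.23 ± 0.37 (limma adjusted p = 0.840, or 0.295 with the block), at 0.20 in experiment 1 and 0.26 in experiment 2.

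Rsad2 has 3 probes, and they did not read alike. The brightest, at chr12:27127859-27127918, was at 1.03 and 0.21 with Xpo5 siRNA, against 1.27 and 0.49 with control siRNA. It was lower with Xpo5 siRNA by 0.25 in experiment 1 and 0.28 in experiment 2, and the fitted difference was -0.27 ± 0.40 (limma adjusted p = 0.830). With the experiment as a block the SE was 0.11 and the limma adjusted p was 0.249. No other probe of the 12 was lower with Xpo5 siRNA in both experiments.

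The other 2 Rsad2 probes cross an intron, so they match spliced RNA, and their sequences are given because they read differently from the brightest one. Positions are on mm9, minus strand, and the genome interval includes the intron.
Rsad2 probe 1, chr12:27135585-27138886: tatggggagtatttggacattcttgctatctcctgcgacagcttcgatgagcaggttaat
Rsad2 probe 2, chr12:27130424-27133462: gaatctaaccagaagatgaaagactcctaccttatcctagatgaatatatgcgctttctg

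Probe 1 was at -2.32 and -2.72 with Xpo5 siRNA, against -2.53 and -2.23 with control siRNA. Probe 2 was at -3.00 and -3.27 with Xpo5 siRNA, against -3.10 and -2.82 with control siRNA. The control of experiment 2 was the highest of the 4 samples on both, while on the brightest probe the control of experiment 1 was. The intron-crossing probes had fitted siRNA differences of -0.14 ± 0.21 and -0.18 ± 0.19 (limma adjusted p = 0.836 and 0.753) and experiment differences of 0.05 ± 0.21 and -0.0039 ± 0.17, against 0.80 ± 0.11 for the brightest probe. The reason for the disagreement was not tested.

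**Figure D2:**
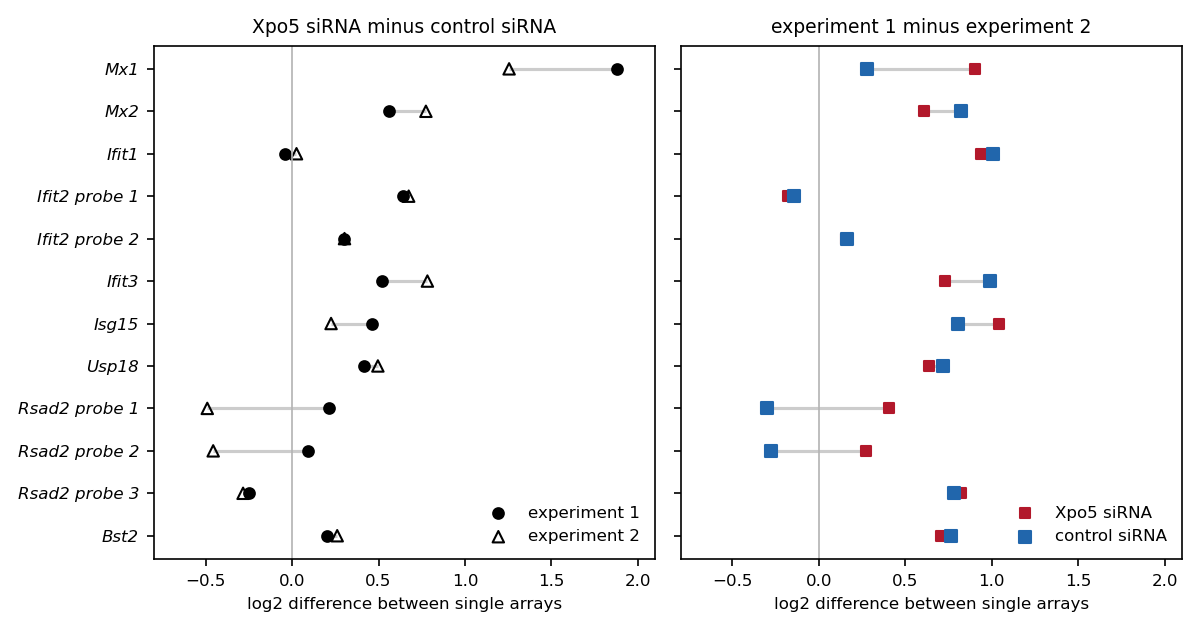
Differences between single arrays, in log2 units, for the 12 probes. On the left, Xpo5 siRNA minus control siRNA is shown for experiment 1 (filled circles) and experiment 2 (open triangles). On the right, experiment 1 minus experiment 2 is shown for Xpo5 siRNA (red) and control siRNA (blue). The experiment gap lies between 0.61 and 1.04 in both siRNA groups for Mx2, Ifit1, Ifit3, Isg15, Usp18, Bst2 and Rsad2 probe 3.

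The gap between the experiments was the larger difference for most members. Experiment 1 was higher by more than the siRNA difference, taken without its sign, in 7 of the 12 probes, against 24.3% of all probes. For the same 7 probes both samples of experiment 1 lay above both samples of experiment 2, against 21.1% of all probes. These are 1 probe each of Mx2, Ifit1, Ifit3, Isg15, Usp18, Rsad2 and Bst2. The median gap over the 12 was 0.67 with Xpo5 siRNA and 0.74 with control siRNA, each 1 array minus 1 array, against 0.01 and 0.03 over all probes. It was above 0 in both siRNA groups for 9 of the 12 probes (37.9% of all probes).

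Ifit1 had the largest fitted experiment difference among the members, 0.97 ± 0.11, or a 1.96-fold higher signal in experiment 1. Isg15 followed with 0.92 ± 0.12, at 1.04 with Xpo5 siRNA and 0.81 with control siRNA. Ifit3 differed by 0.86 ± 0.13, the brightest Rsad2 probe by 0.80 ± 0.11, Bst2 by 0.73 ± 0.11, Mx2 by 0.71 ± 0.12 and Usp18 by 0.68 ± 0.11. The differences of neighbours in this order were smaller than the sum of their SE. Mx1 differed by 0.59 ± 0.19, with a gap of 0.90 with Xpo5 siRNA and 0.28 with control siRNA. The 2 Ifit2 probes had opposite signs, at -0.16 ± 0.11 and 0.16 ± 0.11, and neither passed in limma.

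With the siRNA in the fit, 8 of the 12 probes had an unadjusted p under 0.05 in limma, all of them higher in experiment 1, against 9.46% of all probes. None passed after adjustment (0.0% of all probes), and the smallest adjusted p among them was 0.120. Whether the 7 probes are called depends on the variance model and on the background correction. With an intensity trend in limma all 7 passed as higher in experiment 1, where 4.83% of all probes did, with adjusted p from 0.00262 for Ifit1 and Isg15 to 0.00764 for Mx2. After normexp background correction the 7 passed too, where 6.51% of probes did.

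**Figure D3:**
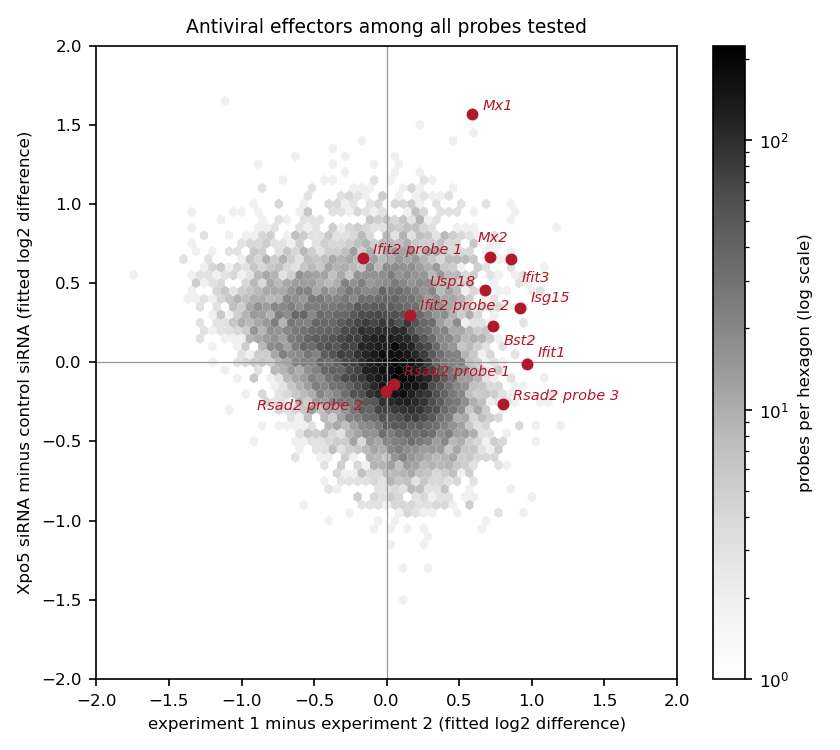
Fitted log2 differences of all probes tested as grey hexagons, darker where more probes fall, with the 12 antiviral effector probes in red. The x axis is experiment 1 minus experiment 2 and the y axis is Xpo5 siRNA minus control siRNA, and the few probes beyond 2 log2 units are off the plot. The 7 probes with an experiment difference of 0.68 to 0.97 lie to the right of the centre, and Mx1 lies highest of the 12, at 1.57. The Ifit2 probes and the other Rsad2 probes lie between -0.16 and 0.16 on the x axis.

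The arrays sat on 2 slides. The first held Xpo5 siRNA of experiment 1 and control siRNA of experiment 2, and the second held the other 2 samples. A slide difference and a siRNA effect that differs between the experiments therefore cannot be told apart. The Xpo5 siRNA and control samples of a slide come from different experiments, so a difference within a slide also holds the experiment gap. Within slides, the median of Xpo5 siRNA minus control siRNA over the 12 probes was 0.96 on the first and -0.20 on the second. Mx1 was higher with Xpo5 siRNA on both, by 2.16 and 0.98, and so were the Ifit2 probes, by 0.49 and 0.82 and by 0.46 and 0.14. The other 9 probes were below 0 on the second slide, with -0.98 for Ifit1, -0.58 for Isg15 and -0.05 for Mx2.

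The other genes of the pathway were taken by their brightest probe, from lists written with earlier results of these data known. Of the IFIT paralogs, Ifit3b was higher with Xpo5 siRNA by 0.48 ± 0.30 and higher in experiment 1 by 0.56 ± 0.13. Ifit1bl1 was higher by 0.57 ± 0.35 and by 0.70 ± 0.12, and Ifit1bl2 was not above background on any array. Of the ISG15 conjugation enzymes, Uba7, which activates ISG15, was at 2.33 and 1.95 with Xpo5 siRNA, against 1.53 and 1.13 with control siRNA. Its groups did not overlap, and its difference of 0.81 ± 0.23 had a limma adjusted p of 0.369. Ube2l6, which conjugates ISG15, differed by 0.47 ± 0.19 and Herc6, the mouse ligase, by -0.05 ± 0.19. Usp41 had no probe under that name. Tested among all probes in limma, 0 genes of these lists and of those that follow passed in either comparison, with or without the experiment as a block. In the fit under which Mx1 passed, by brightest probe with the experiment as a block, 6 of the 69 genes tested over the 6 lists passed as higher with Xpo5 siRNA and 0 as lower, against 2.99% of all genes passing as higher. They are Uba7, Ifnb1, Zbp1, Oas1a, Oas3 and Iigp1, with adjusted p of 0.0441 to 0.0494 in limma, and Zbp1 and Oas3 are named after their values were seen.

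Among the interferon ligands, 5 of the 17 listed were tested. Of these, 2 were higher with Xpo5 siRNA, against 7125 of all 13926 genes by their brightest probe. Ifnb1, the type I interferon that fibroblasts make, was at -3.19 and -4.14 with Xpo5 siRNA, against -3.97 and -4.88 with control siRNA. Its samples lay in the same order as those of Isg15, with both of experiment 1 above both of experiment 2. Its siRNA difference was 0.76 ± 0.45 (limma adjusted p = 0.601) and its experiment difference was 0.93 ± 0.11 (adjusted p = 0.120, or 0.0254 with an intensity trend). Ifnb1 was higher with Xpo5 siRNA by 0.78 in experiment 1 and by 0.74 in experiment 2. With the experiment as a block, the SE of its siRNA difference was 0.11 and the limma adjusted p was 0.102. The signal was dim, and after normexp background correction the experiment difference was 0.28 (limma adjusted p = 0.114) and the siRNA difference 0.31 (adjusted p = 0.496). Ifna9 differed between the siRNA groups by 0.24 ± 0.20, Ifna13 by -0.05 ± 0.16, Ifnz by -0.34 ± 0.14 and Ifna2 by -1.16 ± 0.83, the last with 1 Xpo5 siRNA sample at -8.01. Ifna4, Ifna5, Ifna12, Ifne, Ifnk, Ifng and Ifnl3 had no probe above background on both arrays of a group, and Ifna1, Ifna6, Ifna11, Ifna14 and Ifnl2 had no probe under those names.

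Of the 11 genes of the receptor and ISGF3 list, 8 were higher with Xpo5 siRNA, with a median of 0.15. In experiment 1, 10 were higher, with a median of 0.18. Over all 13926 genes by their brightest probe, 7125 were higher with Xpo5 siRNA and 8553 in experiment 1. Stat2 and Irf9, which belong to ISGF3, both had larger experiment differences than siRNA differences. Stat2 differed by 0.58 ± 0.13 between experiments and 0.48 ± 0.31 between siRNAs, and Irf9 by 0.65 ± 0.11 and -0.13 ± 0.33. With the experiment as a block, the SE of the siRNA difference was 0.13 for Stat2 and 0.11 for Irf9. Socs1, a feedback inhibitor, differed by 0.58 ± 0.11 between experiments and 0.31 ± 0.30 between siRNAs.

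Irf7, the factor that drives interferon genes in the later phase, had the opposite balance. It was at 0.89 and 0.63 with Xpo5 siRNA, against 0.02 and 0.21 with control siRNA, so that its groups did not overlap, and its siRNA difference was 0.65 ± 0.17 (limma adjusted p = 0.360). Its experiment difference was 0.04 ± 0.15. The receptor chains Ifnar1 and Ifnar2 differed between siRNAs by 0.08 ± 0.14 and -0.19 ± 0.22, and the kinases Jak1 and Tyk2 by 0.03 ± 0.16 and 0.26 ± 0.21. Irf3, the factor that viral RNA sensing activates, differed by -0.13 ± 0.17 and Irf1 by 0.15 ± 0.15. Between experiments, Ifnar1, Ifnar2, Jak1, Irf3 and Irf1 differed by 0.08, 0.37, 0.18, 0.18 and 0.12, and Tyk2 by -0.23.

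The next counts are to be read against 7125 of 13926 genes higher with Xpo5 siRNA and 8553 higher in experiment 1. Of the 10 RNA sensors, 9 were higher with Xpo5 siRNA (median 0.40) and 10 in experiment 1 (median 0.44). Of the 38 tested of 40 other antiviral effectors, 33 were higher with Xpo5 siRNA (median 0.46) and 36 in experiment 1 (median 0.67), against medians of 0.01 and 0.06 over all genes by their brightest probe. The smallest siRNA p in limma belonged to Apobec3, a cytidine deaminase, at 0.98 ± 0.28 (unadjusted p = 0.0201), or 0.22 after normexp. Oas1b, Ifi35 and Oas1a followed, at 0.58 ± 0.21, 0.38 ± 0.15 and 0.71 ± 0.30. The smallest experiment p in limma belonged to Iigp1, an interferon-induced GTPase, at 0.99 ± 0.11, then Parp14 at 1.03 ± 0.12, Oasl2 at 0.96 ± 0.11 and Trim30a at 0.96 ± 0.11. These 4 had adjusted p of 0.120 each, and 0.00244 to 0.00357 with an intensity trend.

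**Figure D4:**
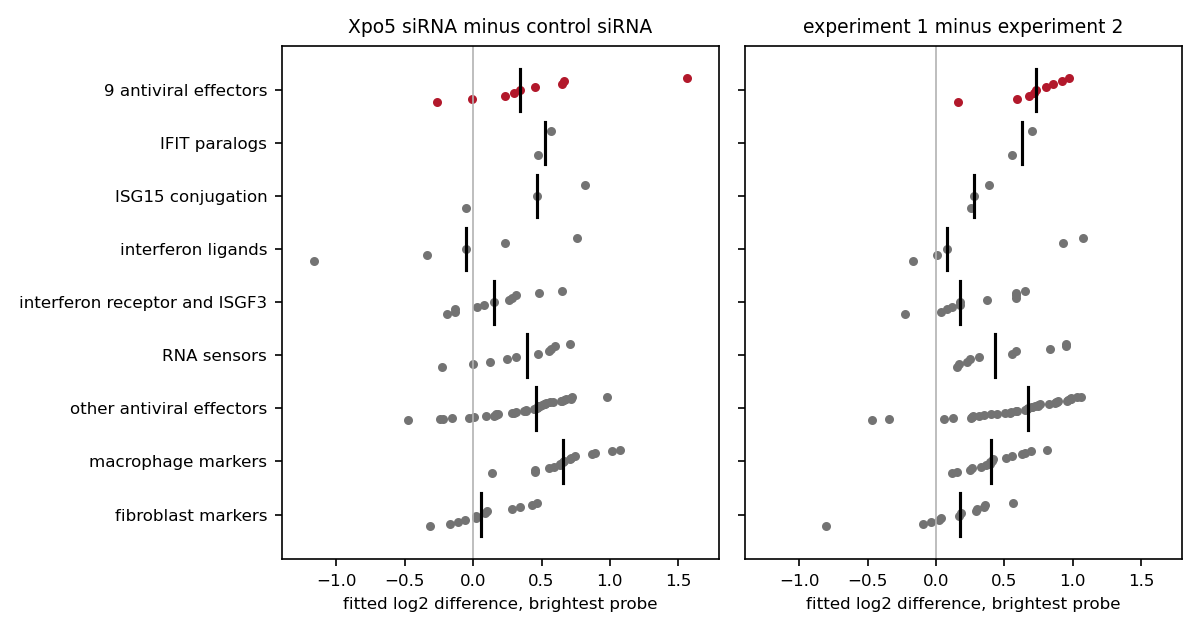
Fitted log2 differences of single genes, each by its brightest probe, for the 9 antiviral effectors (red) and the other lists (grey), with a black bar at the median of each list. Xpo5 siRNA minus control siRNA is on the left and experiment 1 minus experiment 2 on the right. The medians of the 9 effectors are 0.34 and 0.73, those of the other antiviral effectors 0.46 and 0.67, and those of the macrophage markers 0.66 and 0.40.

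Among the marker lists of other cells, only that of macrophages had every gene on the same side in both comparisons. The 12 fibroblast markers were all detected, and their summed level was 2453 and 2321 times the 75th percentile with Xpo5 siRNA, against 2153 and 1966 with control siRNA. Such a sum is weighted to the brightest genes. By gene, 8 of the 12 were higher and 4 lower with Xpo5 siRNA (median 0.05). In experiment 1, 9 were higher and 3 lower (median 0.18). All 16 macrophage markers were detected as well. They were higher with Xpo5 siRNA (median 0.66) and in experiment 1 (median 0.40), with 0 passing in limma. By brightest probe with the experiment as a block, a fit chosen after seeing the data, 5 passed as higher, where 2.99% of genes did. Over all 13926 genes, 7125 were higher with Xpo5 siRNA and 8553 in experiment 1. The summed level of the macrophage markers was 91.6 and 77.6 with Xpo5 siRNA, against 64.9 and 45.9 with control siRNA. That of the 9 effectors was 138 and 79.2, against 108 and 61.4. In a bulk sample, more cells of a type and more RNA per cell cannot be told apart, and the part of macrophages in the effectors' differences was not tested. Bst2 also marks plasmacytoid dendritic cells, whose markers Siglech, Spib, Ccr9 and Klk1 were not above background on any array. Cd3d, Cd79a, Cd79b, Cd2, Ms4a1 and Ncr1 of lymphocytes, Pecam1, Cdh5 and Tie1 of endothelium, and Epcam and Cdh1 of epithelium were not above background either. The remaining markers of these types were detected, 4 of 8 of plasmacytoid dendritic cells, 4 of 10 of lymphocytes, 3 of 6 of endothelium and 4 of 6 of epithelium. Of these 15 markers, 6 were higher and 9 lower with Xpo5 siRNA, and 11 were higher and 4 lower in experiment 1. The largest siRNA difference among them, chosen after the values were seen, was that of Kdr, at 1.19 ± 0.18 (limma adjusted p = 0.315).

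The mean profile of the 9 genes, each centred over the 4 arrays, was 0.58 and -0.14 with Xpo5 siRNA and 0.13 and -0.57 with control siRNA. Likeness to it was measured as the root mean square difference of centred log2 values over the 4 arrays, among 13926 genes. Usp18 was nearest of all, at 0.033, and Bst2, Isg15, Mx2 and Ifit3 ranked 45, 79, 84 and 136. Ifit1 ranked 828, Ifit2 1215, Rsad2 3190 and Mx1 12349. Each member is part of the mean profile, which favours its own rank. The 6 nearest genes outside the members were Clu at 0.033, Ifi211 at 0.036, Cxcl10 at 0.036, Rtp4 at 0.050, Cadm1 at 0.056 and Sh3bp5 at 0.057. With 4 arrays such likeness is a description, and the points share their arrays and scaling.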

How the data were processed

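Per the labels' protocols, RNA of the 4 samples carried a single dye (Cy3) and each sample had its own Agilent array. Feature Extraction 10.5.1.1 produced the deposited spot intensity values, which per the file headers are background-subtracted and linear. The deposited table of the series is in log2, and compared with those values it equals their log2 plus 1 constant for each array, with every array's median at 5.33 and 99.7% to 99.8% of probes within 0.001 of that relation.

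Outlier spots, 77 to 134 of 43379 per array, were dropped, repeated spots were averaged as log2 values and the array's 75th percentile over probes was subtracted. Of 41174 probes, 25649 passed the background filter and 25637 had all 4 values. The difference between siRNA groups was fitted in limma 3.58.1 under R 4.3.3 (lmFit, eBayes without a trend, two-sided, Benjamini-Hochberg at 0.05), and that between experiments with the siRNA as a covariate. The fit was run on simulated data in which all probes had the same spread. That run does not test the p-values of probes with unequal spread. RefSeq of GRCm38.p6 gave the symbols: 26787 probes by accession, 5128 by symbol, 942 by synonym, and 8317 remained unmatched. Positions of probes are on mm9 as in the files. Any further steps behind the log2 table are not given in the sources used here.

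The replicate number was read as the experiment from the series text. Deviations of same-numbered samples correlated at r = 0.515 across 25637 probes, which are not independent replicates. The members and lists were chosen with earlier results of these data known. Named outside the members are Xpo5, the genes of the 4 short pathway lists (1 is not reported here), the 4 other effectors with the smallest p in each comparison, and the 6 genes nearest the mean profile. Macrophage and other markers served as checks, and Kdr was named after its values were seen. Alternatives covered background correction, scaling, the deposited table, filters, genes in place of probes, an intensity trend, blocks and left-out samples.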

Additional observations from a re-analysis of the deposited data

Results flagged for a closer look

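The siRNA difference had opposite signs in the 2 experiments for 3 of the 12 probes, and the difference between the experiments was not tested, since each is 1 array minus 1 array. For Ifit1, Xpo5 siRNA minus control siRNA was -0.04 in experiment 1 and 0.03 in experiment 2, a difference of -0.0686. For Rsad2 probe 1 it was 0.21 in experiment 1 and -0.49 in experiment 2, a difference of 0.70. For Rsad2 probe 2 it was 0.09 in experiment 1 and -0.46 in experiment 2, a difference of 0.55. Over all probes, 30.4% had opposite signs.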

How the results depend on the processing

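For the siRNA comparison, 0 of 25637 probes passed, with 2784 at an unadjusted p under 0.05 in limma. The count was 1 with normexp and with an intensity trend, 3 for genes by their brightest probe, 10 with median scaling and with the deposited table, 4 with the replicate block, and 609 genes (417 higher) with the replicate block and the brightest probe. The last was chosen after seeing the data. It stayed 0 with quantile normalization, either other filter and the slide as a block. Leaving out 1 sample gave 0. The percentile was taken over spots in an earlier version of these values and set to probes, as the written design has it, after results were known. Over spots, kept as an added alternative, the count was also 0, and 0 to 6 with 1 sample left out (6 without control siRNA replicate 1, 5 without replicate 2).

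For the experiment comparison, 0 passed, with 5973 at an unadjusted p under 0.05. The count was 2969 with an intensity trend and 3528 with normexp, and 0 under the other alternatives. It was not run with a sample left out, since no residual degrees of freedom remain. Median scaling and the deposited table moved the median of all probes by -0.11 between siRNAs and 0.11 between experiments, and no filter by -0.11 between experiments.

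The median gap between experiments with Xpo5 siRNA, 0.67, became 0.77 with median scaling and the deposited table, 0.59 with quantile normalization and 0.57 with normexp. With control siRNA, 0.74 became 0.85, 0.85 and 0.64 under the first 3. The median siRNA difference in experiment 1, 0.36, became 0.25 with median scaling and the deposited table, and in experiment 2, 0.28, became 0.18 and 0.18.

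The Ifit1 siRNA difference changed sign at 0.0249 with normexp, 0.0251 with quantile normalization and 0.00478 over spots. The experiment difference of Rsad2 probe 2 changed sign at 0.10 with median scaling, the deposited table and quantile normalization and 0.00715 with normexp, and that of probe 1 at -0.00805 with normexp. With 1 sample left out, the siRNA difference ran from -0.51 to 0.49 for Ifit1, -0.18 to 0.86 for Isg15, -0.15 to 0.61 for Bst2, -0.34 to 0.0634 for Rsad2 probe 1 and -0.67 to 0.14 for the brightest Rsad2 probe. It ran from 0.25 to 1.08 for Mx2, 0.16 to 1.15 for Ifit3, 0.0955 to 0.81 for Usp18, 1.12 to 2.02 for Mx1 and 0.57 to 0.75 and 0.22 to 0.38 for the Ifit2 probes, and these kept their direction under every alternative run. For Mx2, Ifit3 and Usp18 the lowest value was without control siRNA replicate 2 and the highest without control siRNA replicate 1. The number of arrays limits the precision, and Mx1 rests on signals near background.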
